A study of Mus musculus with 8 samples.

Results

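Axon guidance ligands and receptors were examined across the cell classes of the adult mouse retina, across ganglion cell subsets, and between control mice and mice with a conditional Piezo2 knockout (cKO). The members were all genes whose symbol was an Eph receptor (Epha or Ephb with a number), an ephrin (Efna or Efnb with a number), a Robo, Slit or netrin (Ntn) with a number, a class 3 semaphorin (Sema3 with one letter), a plexin (Plxna to Plxnd with a number), Unc5a to Unc5d, or Dcc. This rule took 54 of 33696 genes: 9 EphA and 5 EphB receptors, 5 ephrin-A and 3 ephrin-B ligands, 4 Robo receptors, 3 Slit ligands, Dcc with the 4 Unc5 receptors, 4 netrins, 9 plexins and 7 class 3 semaphorins. The rule used names and no measured value. Nuclei were isolated from retinae of Piezo2f/f mice as control (replicates 1 to 4), and for the cKO group (replicates 10 to 13) from Piezo2f/f mice that also carry Olig2-cre. Each library held 6 pooled retinae at postnatal day 120, and nuclei were sorted for NeuN and RBPMS to enrich retinal ganglion cells (RGCs). Both groups carried 2 floxed copies of Piezo2, a mechanically gated cation channel gene, and the cKO group also carried Cre recombinase under control of Olig2, a transcription factor gene of the oligodendrocyte lineage. Per the study's methods, Olig2-cre mice are heterozygous for Olig2, so the groups differed in this allele as well as in Piezo2. The series is described as female.

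Guidance genes encode cues and receptors that steer growing axons. Ephrins are membrane-bound ligands of Eph receptor tyrosine kinases, Slits repel axons through Robo receptors, netrins attract through Dcc or repel through Unc5 receptors, and secreted class 3 semaphorins act through plexins, for most of them together with neuropilins. In the developing visual system, graded EphA and ephrin-A along the nasal to temporal axis and EphB and ephrin-B along the dorsal to ventral axis order RGC axons in their brain targets, Dcc and netrin 1 guide axons out of the eye at the optic disc, and Slits with Robos keep them on course to the optic chiasm. Many of these genes stay transcribed in the adult retina, where other roles in synapses and blood vessels are known.

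Single-nucleus counts of unique molecular identifiers (UMIs) summed to 35697629 to 60088630 per library, and 34935 nuclei were kept, 15880 control and 19055 cKO, at 2211 to 5315 nuclei and a median of 3655.5 to 9485 UMIs per library. The 28 pairs of libraries shared 0 to 11 barcodes of nuclei. Nuclei were gated by marker UMIs: 22119 fell in the RGC gate, 2790 in the amacrine, 1719 in the bipolar, 2455 in the photoreceptor, 1422 in the Müller glia and 192 in the horizontal cell gate, 3261 fell in none and 977 in several. Rbpms, an RNA-binding protein gene that marks RGCs, stood at 1195 CPM in the RGC gate and 16.5 CPM in the amacrine gate. It is one of the marker genes of the RGC gate, so these levels do not test the gates. The Müller glia gate also held RNA of the vascular receptor genes Flt1 (1929 CPM) and Kdr (511 CPM) with Cldn5 at 0.274 and Pecam1 at 2.62 CPM. Piezo2 in RGC-gated nuclei was 17.2, 13.1, 14.3 and 12.0 CPM in control and 14.8, 13.5, 12.6 and 8.47 CPM in cKO libraries, which overlap (log2 fold change -0.26, SE 0.15, adjusted p = 0.995), and the RGC gate held 1 UMI of Olig2 in all. Per the study's methods the knockout removes some exons of Piezo2. Counts over the whole gene do not tell transcripts with and without these exons apart.

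UMIs were summed over a library and gate, and levels are CPM, that is, the sum of a gene where all genes sum to 1000000. They are given as the lowest, the median and the highest of the 8 libraries. UMI counts are not scaled by gene length, so levels are compared within a gene and not between genes. edgeR's quasi-likelihood test compared the sums, with p-values adjusted over all genes tested and, between gates, the library as a block. A member was called higher or lower where its adjusted p was below 0.05 and its log2 fold change beyond 0.5 in size. Fold changes are of RGC over the other class, of inside over outside a gate, and of the first-named over the second-named set. Within a gate, fewer nuclei with a transcript and less of it per nucleus cannot be told apart in summed counts. Droplets without a nucleus gave the level of free RNA: 21 of 54 members were above it in RGC-gated nuclei of all 8 libraries, 20 were below it in all 8 and 13 were mixed. Those below it were Epha2, Epha8, Ephb3, Ephb6, Efna1, Efna2, Efna3, Efnb1, Efnb2, Efnb3, Unc5a, Unc5b, Plxnb1, Plxnb2, Plxnb3, Plxnd1, Sema3b, Sema3c, Sema3f and Sema3g, and the part of free RNA in their differences was not tested.

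The first question was which guidance genes the RGC-gated nuclei carry at other levels than the nuclei of other gates. All nuclei came through the sort for NeuN and RBPMS, so the other gates need not represent their whole retinal classes. Against amacrine-gated nuclei, 14 of 45 tested members were higher in RGC-gated nuclei and 15 lower, beside 14.6% higher and 14.7% lower of all 16309 genes tested. Against bipolar-gated nuclei 23 of 45 were higher and 9 lower (all genes: 26.5% higher and 20.8% lower), against photoreceptor-gated nuclei 32 of 45 and 5 (all genes: 32.7% higher and 25.2% lower), and against Müller glia-gated nuclei 20 of 47 and 17 (all genes: 30.4% higher and 23.6% lower). The median log2 fold change of the members was -0.03 against -0.01 over all genes for amacrine, 0.60 against 0.07 for bipolar, 1.91 against 0.11 for photoreceptor and 0.28 against 0.12 for Müller glia. Epha6, Efna3 and Sema3a were higher in RGC-gated nuclei in all 4 comparisons, Efnb3 and Plxnb1 were lower in all 4, and Efna2 and Sema3c were called in none. Epha2, Robo3, Robo4, Sema3g, Efna4, Ntn5 and Plxnb3 had too few counts to be tested in any of the 4. Epha3, Efnb1, Plxnb2, Sema3f, Unc5b and Ntn3 were higher in none and lower in at least 1. Of the class comparisons, Ephb4 and Sema3b passed the filter on low counts only in that with Müller glia, through the gate where they were high, so lower was the one call open to them, and both are among the 17 lower there. The other members were higher against at least 1 class, as the map of fold changes shows. Thinned to 2000 UMIs per nucleus, which tests fewer genes, the calls against the amacrine gate were 18 of 30 members beside 24.9% of 11060 genes, where the full depth gave 29 of 45 members and 29.3% of genes. Against the photoreceptor gate they were 23 of 30 members beside 47.0% of 11046 genes, where the full depth gave 37 of 45 members and 57.9% of genes. Library medians were 900 to 1516 UMIs per photoreceptor-gated and 4700 to 11130 per RGC-gated nucleus. Thinning left out nuclei below 2000 UMIs, thus most photoreceptor-gated nuclei, and these were not tested at equal depth. For the bipolar gate thinning gave 22 of 30 members beside 45.1% of 11254 genes (full depth 32 of 45 members and 47.3% of genes), and for the Müller glia gate 32 of 35 members beside 51.9% of 11609 genes (full depth 37 of 47 members and 54.0% of genes).

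**Figure D1:**
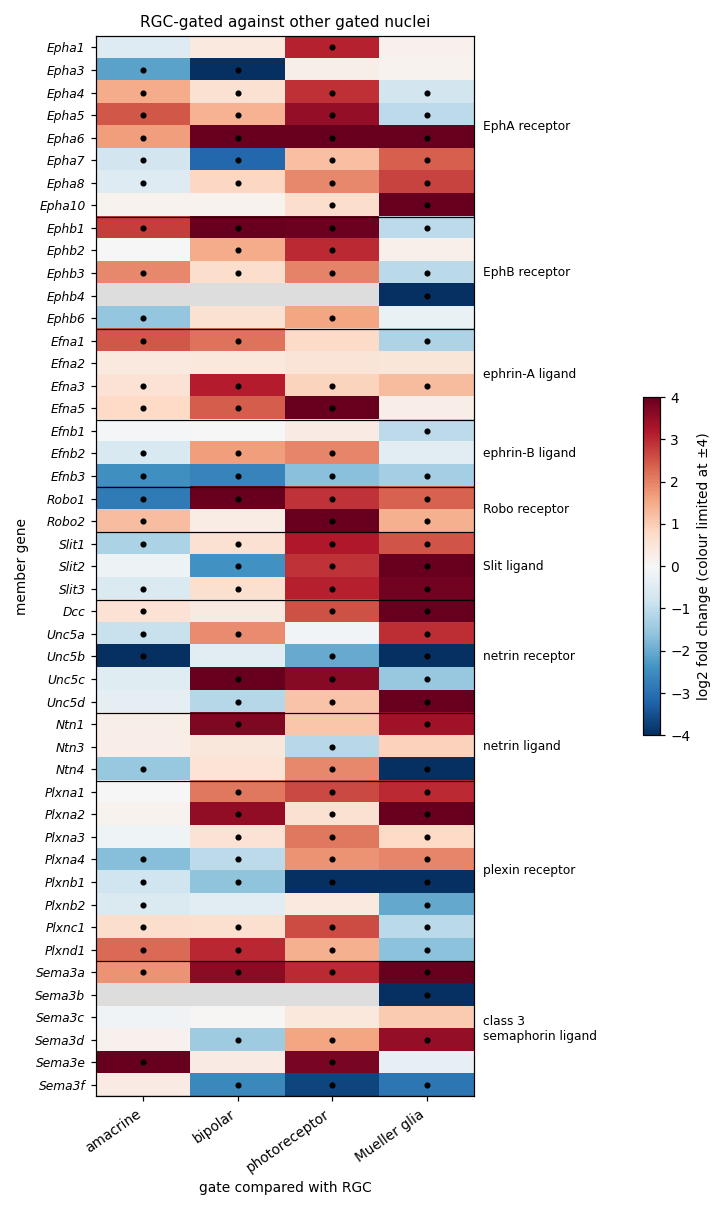
Log2 fold changes of the members in RGC-gated nuclei against amacrine, bipolar, photoreceptor and Müller glia-gated nuclei, one row per member and one column per comparison, with colour limited to plus and minus 4, dots marking called members and grey marking members not tested. Epha6, Efna3 and Sema3a carry a positive call in all 4 columns and Efnb3 and Plxnb1 a negative call in all 4.

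Among the EphA receptors, Epha6 and Epha5 were higher in RGC-gated nuclei than in the 3 other neuronal gates tested (amacrine, bipolar and photoreceptor), and Epha3 and Epha7 were lower than in the bipolar gate. Epha6 (ENSMUSG00000055540) lies on chromosome 16, 59473846 to 60425894, minus strand in GRCm39 and ran at 1165, 1234 and 1344 CPM in RGC-gated nuclei. Bipolar-gated nuclei held 1.99, 15.5 and 83.2 CPM of Epha6 (log2 fold change 5.50, SE 0.18, adjusted p = 3.59e-26). In photoreceptor-gated nuclei Epha6 was at 18.3, 59.1 and 173 CPM (log2 fold change 4.56, SE 0.27, adjusted p = 8.60e-13). Müller glia-gated nuclei held 0, 15.1 and 102 CPM of Epha6 (log2 fold change 5.92, SE 0.17, adjusted p = 3.85e-37). None of these gates overlapped with RGC-gated nuclei. Droplets without a nucleus held 89.1, 115 and 213 CPM of Epha6, so the medians of these 3 gates lie under the level of free RNA. Horizontal cell-gated nuclei, usable in 4 libraries, had a mean of 876 CPM beside 1232 CPM in the RGC gate. Epha5 was at 1056, 1107 and 1232 CPM in RGC-gated nuclei. In amacrine-gated nuclei Epha5 was at 163, 205 and 261 CPM (log2 fold change 2.48, SE 0.05, adjusted p = 6.27e-25). The ranges of Epha5 did not overlap, but in the Müller glia gate, at 2385, 2519.9 and 3112 CPM, it was higher than in RGC-gated nuclei (log2 fold change -1.04, SE 0.06, adjusted p = 3.27e-23). Epha3 was at 21.3, 22.9 and 24.9 CPM in RGC-gated nuclei. Amacrine-gated nuclei held 68.4, 94.7 and 152 CPM of Epha3 (log2 fold change -2.15, SE 0.09, adjusted p = 1.45e-17). In bipolar-gated nuclei Epha3 was at 485, 591 and 842 CPM (log2 fold change -4.67, SE 0.07, adjusted p = 7.77e-37). Epha7 was at 49.3, 56.9 and 62.8 CPM in RGC-gated nuclei. Bipolar-gated nuclei held 389, 502 and 731 CPM of Epha7 (log2 fold change -3.14, SE 0.07, adjusted p = 8.27e-32). For Epha3 and Epha7 every bipolar library lay above every RGC library.

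Ephb1, the EphB receptor known for steering uncrossed RGC axons at the chiasm, was higher in RGC-gated nuclei than in the other 3 neuronal gates tested. It ran at 227, 257 and 269 CPM in RGC-gated nuclei. In amacrine-gated nuclei Ephb1 was at 31.3, 38.3 and 46.8 CPM (log2 fold change 2.76, SE 0.06, adjusted p = 4.17e-24). Bipolar-gated nuclei held 1.28, 10.1 and 38.6 CPM of Ephb1 (log2 fold change 4.65, SE 0.15, adjusted p = 6.21e-26). In photoreceptor-gated nuclei Ephb1 was at 4.66, 23.1 and 34.1 CPM (log2 fold change 3.93, SE 0.19, adjusted p = 2.33e-14). RGC-gated libraries overlapped with none of these gates. In the Müller glia gate, at 533, 572 and 716 CPM, it was higher than in RGC-gated nuclei (log2 fold change -1.05, SE 0.06, adjusted p = 3.97e-22). Free RNA held 59.4, 62.0 and 82.4 CPM of Ephb1, above every amacrine, bipolar and photoreceptor library. Ephb4, a receptor of ephrin-B2 in veins, was at 0.577, 0.941 and 1.32 CPM in RGC-gated nuclei. Its level in Müller glia-gated nuclei was 0, 14.3 and 28.5 CPM, higher in 7 of 8 libraries and with no UMI in 1. Of the cell class comparisons, Ephb4 passed the filter on low counts only in this one, through the Müller glia gate, so no test of the difference is given.

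The ephrins split by member. Efna5, an ephrin-A graded across retina and tectum in development, ran at 513, 601 and 629.9 CPM in RGC-gated nuclei. Photoreceptor-gated nuclei held 4.58, 37.6 and 79.0 CPM of Efna5 (log2 fold change 4.13, SE 0.22, adjusted p = 9.07e-14). The ranges were apart. Efna1 was at 2.06, 3.52 and 3.98 CPM in RGC-gated nuclei. In amacrine-gated nuclei Efna1 was at 0, 0.439 and 2.15 CPM (log2 fold change 2.49, SE 0.35, 597 UMIs in the RGC and 11 in the amacrine gate). RGC-gated nuclei carried Efna1 past the filter on low counts, so no adjusted p is given, although its call is among those counted above. The ranges of Efna1 overlapped, although RGC was the higher gate in all 8 libraries, and free RNA held 7.16, 8.18 and 11.8 CPM, more than either gate. Efna3 was called higher in RGC-gated nuclei in all 4 comparisons, yet its RGC mean of 8.21 CPM lay under the 25.4 CPM of droplets without a nucleus, and the part of free RNA in these calls was not tested. Efnb3, a transmembrane ephrin, was at 1.47, 2.13 and 2.89 CPM in RGC-gated nuclei. Amacrine-gated nuclei held 6.89, 11.8 and 20.8 CPM of Efnb3 (log2 fold change -2.47, SE 0.16, adjusted p = 2.63e-13). In bipolar-gated nuclei Efnb3 was at 6.90, 13.6 and 21.2 CPM (log2 fold change -2.66, SE 0.26, adjusted p = 1.61e-11). Photoreceptor-gated nuclei held 3.67, 6.74 and 27.5 CPM of Efnb3 (log2 fold change -1.67, SE 0.37, adjusted p = 3.70e-04). No Efnb3 library of these 3 gates reached down to the RGC range. Müller glia-gated nuclei held 0 to 12.5 CPM of Efnb3 with a mean of 5.78 CPM. There the ranges overlapped and RGC was the higher gate in 2 of 8 libraries. Droplets without a nucleus held a mean of 11.35 CPM of Efnb3.

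Robo receptors of Slits differed by class. Robo1 was lower in RGC-gated than in amacrine-gated nuclei but higher than in bipolar-gated nuclei. It ran at 337, 348 and 425 CPM in RGC-gated nuclei. In amacrine-gated nuclei Robo1 was at 2343, 2586 and 3048 CPM (log2 fold change -2.83, SE 0.05, adjusted p = 2.34e-26). Bipolar-gated nuclei held 6.53, 12.6 and 80.2 CPM of Robo1 (log2 fold change 4.43, SE 0.16, adjusted p = 2.17e-24). Neither gate overlapped with RGC. Robo2 ran at 1328, 1439 and 1572 CPM in RGC-gated nuclei. In photoreceptor-gated nuclei Robo2 was at 41.2, 86.5 and 181 CPM (log2 fold change 4.12, SE 0.21, adjusted p = 4.89e-14). Free RNA held 321, 365 and 462 CPM of Robo2, above every photoreceptor library. Slit1 and Slit3, secreted Robo ligands, were lower in RGC-gated than in amacrine-gated nuclei and higher than in the other 3 gates. For Slit3 the ranges overlapped with both the amacrine gate (RGC higher in 2 of 8 libraries) and the bipolar gate (7 of 8). RGC-gated nuclei held 6.32 to 13.6 CPM and bipolar-gated nuclei 1.28 to 23.9 CPM of Slit3. In the bipolar gate every cKO library had less Slit3 than any control library, a difference that was not tested. Slit2 was lower than in bipolar-gated nuclei and higher than in photoreceptor and Müller glia-gated nuclei.

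Netrin receptors differed by class. Dcc, the attractive netrin receptor, ran at 2268, 2538 and 2638 CPM in RGC-gated nuclei. Müller glia-gated nuclei held 6.96, 26.5 and 94.8 CPM of Dcc (log2 fold change 6.55, SE 0.13, adjusted p = 2.54e-44). Unc5d, a repulsive receptor of the Unc5 family, was at 403, 471 and 499 CPM in RGC-gated nuclei. In Müller glia-gated nuclei Unc5d was at 5.22, 12.5 and 56.2 CPM (log2 fold change 5.11, SE 0.15, adjusted p = 5.76e-36). Unc5c was at 535, 572 and 627 CPM in RGC-gated nuclei. Bipolar-gated nuclei held 13.1, 22.5 and 67.7 CPM of Unc5c (log2 fold change 4.36, SE 0.13, adjusted p = 2.73e-27). In each of these 3 comparisons the lowest RGC library stood above the highest library of the other gate. Not every class had less: Unc5d was lower in RGC-gated than in bipolar-gated nuclei (log2 fold change -1.14, SE 0.05, adjusted p = 3.15e-22), and Unc5c lower than in Müller glia-gated nuclei (log2 fold change -1.53, SE 0.06, adjusted p = 9.90e-31). Unc5b, the Unc5 receptor known from blood vessels, was at 1.05, 1.58 and 2.16 CPM in RGC-gated nuclei. In amacrine-gated nuclei Unc5b was at 30.8, 42.2 and 64.2 CPM (log2 fold change -4.70, SE 0.12, adjusted p = 1.58e-22). Photoreceptor-gated nuclei held 3.59, 7.08 and 15.0 CPM of Unc5b (log2 fold change -2.01, SE 0.37, adjusted p = 4.53e-05). All libraries of both gates were above all RGC libraries. Droplets without a nucleus held a mean of 7.58 CPM of Unc5b, close to the photoreceptor median. Ntn4, a laminin-binding netrin of basement membranes, was at 3.78, 4.40 and 5.37 CPM in RGC-gated nuclei. In Müller glia-gated nuclei Ntn4 was at 99.1, 128 and 143 CPM (log2 fold change -4.61, SE 0.14, adjusted p = 3.04e-36). Again all 8 Müller glia libraries lay above the RGC range.

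Among the semaphorins, Sema3e, the ligand that binds Plxnd1 directly, had the largest log2 fold change of the members called higher against the amacrine gate. It ran at 236, 251 and 270.2 CPM in RGC-gated nuclei. Amacrine-gated nuclei held 6.33, 12.4 and 19.4 CPM of Sema3e (log2 fold change 4.48, SE 0.08, adjusted p = 2.71e-25). Sema3f, a neuropilin 2 ligand, was at 3.14, 4.16 and 5.52 CPM in RGC-gated nuclei. In bipolar-gated nuclei Sema3f was at 20.9, 25.4 and 41.6 CPM (log2 fold change -2.58, SE 0.18, adjusted p = 1.63e-15). Photoreceptor-gated nuclei held 50.3, 65.3 and 88.5 CPM of Sema3f (log2 fold change -3.67, SE 0.17, adjusted p = 7.58e-15). Neither gene overlapped between these gates. Droplets without a nucleus held a mean of 28.4 CPM of Sema3f, beside a mean of 26.95 CPM in bipolar-gated nuclei. Sema3b was at 0.240, 0.494 and 0.673 CPM in RGC-gated nuclei. Müller glia-gated nuclei held 11.3, 17.1 and 28.1 CPM of Sema3b, which, like Ephb4, passed the filter only in this class comparison, so no test of the difference is given. Free RNA held 2.53, 5.25 and 7.45 CPM of Sema3b, above the RGC range. Sema3a, the neuropilin 1 ligand higher in all 4 comparisons, was at 121, 133 and 142 CPM in RGC-gated nuclei. In amacrine-gated nuclei Sema3a was at 30.9, 38.3 and 48.1 CPM (log2 fold change 1.81, SE 0.06, adjusted p = 2.75e-19). Müller glia-gated nuclei held 0, 6.92 and 16.0 CPM of Sema3a (log2 fold change 4.13, SE 0.18, adjusted p = 3.74e-28). Free RNA held 40.6, 48.4 and 52.9 CPM of it.

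Of the plexins, Plxna2, a receptor for class 3 and class 6 semaphorins, was at 247, 263 and 275 CPM in RGC-gated nuclei. In Müller glia-gated nuclei Plxna2 was at 5.81, 9.77 and 24.2 CPM (log2 fold change 4.79, SE 0.14, adjusted p = 8.89e-36). Plxnb1, a receptor of the membrane-bound semaphorin Sema4d, was at 1.55, 1.73 and 2.40 CPM in RGC-gated nuclei. Photoreceptor-gated nuclei held 30.5, 41.0 and 54.9 CPM of Plxnb1 (log2 fold change -4.20, SE 0.19, adjusted p = 3.96e-15). In Müller glia-gated nuclei Plxnb1 was at 69.4, 107 and 119 CPM (log2 fold change -5.62, SE 0.16, adjusted p = 1.66e-36). Every photoreceptor and Müller glia library lay above every RGC library for Plxnb1, and free RNA held 12.6, 16.4 and 20.6 CPM of it. Plxnd1, the Sema3e receptor, was at 3.94, 4.34 and 5.48 CPM in RGC-gated nuclei. Amacrine-gated nuclei held 0, 0.780 and 2.87 CPM of Plxnd1 (log2 fold change 2.27, SE 0.35, adjusted p = 3.02e-06). In Müller glia-gated nuclei Plxnd1 was at 4.84, 14.6 and 26.1 CPM (log2 fold change -1.63, SE 0.26, adjusted p = 2.09e-07). It was thus higher in RGC-gated than in amacrine-gated nuclei and lower than in Müller glia-gated nuclei, while free RNA held 5.37, 6.69 and 8.01 CPM, above the RGC level in every library. Leaving out Müller glia-gated nuclei with a UMI of an endothelial marker other than Flt1 and Kdr kept 1378 of 1422 nuclei. It gave 37 called members beside 37, and 8617 of 15979 genes beside 8645 of 16018. With so few nuclei left out the count could hardly change, and nuclei with only Flt1 or Kdr RNA stayed in. The part of Flt1 and Kdr RNA in these differences was not tested.

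**Figure D2:**
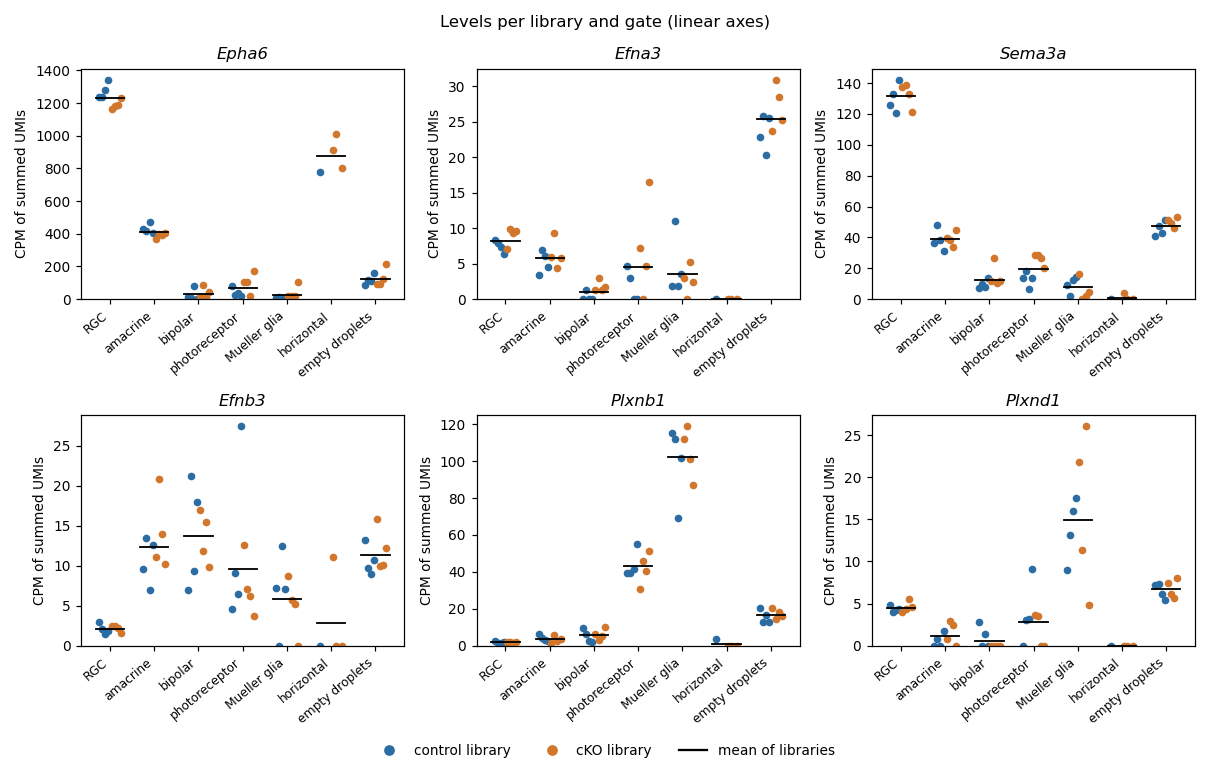
Level in CPM of Epha6, Efna3, Sema3a, Efnb3, Plxnb1 and Plxnd1 by gate and in droplets without a nucleus, one point per library and a black line at the mean, on linear axes. Epha6 runs in RGC-gated nuclei from 1165 to 1344 CPM, and Efna3 is higher in empty droplets than in any RGC library.

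Other genes of the same pathways, a list of 54 coreceptors, membrane-bound semaphorins and intracellular effectors such as Nrp1, L1cam, Sema6d and Dpysl2, were counted on the same terms. In RGC-gated nuclei they were 20 higher and 6 lower of 54 tested against the amacrine gate (all genes: 14.6% higher and 14.7% lower), 32 higher and 3 lower of 52 against the bipolar gate (26.5% higher and 20.8% lower), 40 higher and 3 lower of 53 against the photoreceptor gate (32.7% higher and 25.2% lower) and 25 higher and 14 lower of 52 against the Müller glia gate (30.4% higher and 23.6% lower).

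Within the RGC gate, 7 sets of nuclei were gated by genes known to mark RGC kinds, and each was compared with the other RGC-gated nuclei outside it, leaving nuclei in several of these gates with neither side. The sets are called by their gate genes: Opn4 and Eomes, genes of intrinsically photosensitive RGCs, Cartpt, a neuropeptide precursor of direction-selective RGCs, Spp1, osteopontin of alpha RGCs, the transcription factors Foxp2, Tbr1 and Zic1, and Chrm2 together with Ppp1r1c. Against the nuclei outside, in the Opn4/Eomes gate (346 nuclei) 11 of 45 members were higher and 9 lower (all genes 6.36% higher and 6.96% lower, median 0.09 against -0.05), and in the Cartpt gate (1148 nuclei) 10 of 45 members were higher and 11 lower (all genes 4.4% higher and 6.35% lower, median -0.15 against 0.01). Likewise, in the Spp1 gate (411 nuclei) 5 of 45 members were higher and 17 lower (all genes 10.4% higher and 12.6% lower, median -0.36 against -0.02), and in the Foxp2 gate (3161 nuclei) 10 of 45 members were higher and 7 lower (all genes 4.68% higher and 7.78% lower, median -0.02 against 0.01). Further, in the Tbr1 gate (521 nuclei) 2 of 45 members were higher and 1 lower (all genes 1.54% higher and 2.86% lower, median -0.14 against -0.01), in the Chrm2/Ppp1r1c gate (752 nuclei) 2 of 44 members were higher and 19 lower (all genes 4.09% higher and 7.58% lower, median -0.30 against -0.01), and in the Zic1 gate (230 nuclei) 4 of 45 members were higher and 12 lower (all genes 2.5% higher and 6.63% lower, median -0.31 against -0.09). The lower counts include members that the nuclei outside carried past the filter on low counts, such as Unc5b in the Cartpt and Spp1 gates. For the Zic1 gate, the smallest, SEs and adjusted p-values of single members are not given. Adjusted p-values there were small even where libraries disagreed in direction, as for Sema3a, and the calls of this gate rest on them. In the Spp1 gate nuclei had more UMIs (library medians 10836.5 to 24901) than outside it (4611 to 10942). The part of depth in its counts was not tested, since too few nuclei passed the gate after thinning to a fixed depth. Thinned to 2000 UMIs per nucleus, the Foxp2 gate had calls for 9 of 31 members beside 7.27% of 10777 genes, where the full depth gave 17 of 45 members and 12.5% of genes. The Chrm2/Ppp1r1c gate, then usable in 6 libraries, had calls for 11 of 32 members beside 5.46% of 11692 genes, where the full depth gave 21 of 44 members and 11.7% of genes.

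Of the 45 members tested in at least 1 of the 7 gates, 38 were called in at least 1, beside 36.5% of 15998 genes. In all, 26 were higher in some gates and lower in others, beside 14.7% of genes, while 7 were called in none (Efna1, Epha1, Epha10, Ntn3, Plxna1, Plxnb1 and Sema3c). Sema3d and Unc5c were called in 6 gates each. Over gates and members there were 120 calls in 314 tests (38.2%), beside 12.1% over all genes. These calls, and the counts by family below, include lower ones of members that the nuclei outside carried past the filter on low counts. Among them are Sema3d in 5 gates and Slit3 in the Chrm2/Ppp1r1c and Zic1 gates. Unc5b in the Cartpt and Spp1 gates and Ntn4 in the Zic1 gate are others. By family, calls per test were 14 of 21 (66.7%) for the Slits, 21 of 34 (61.8%) for the netrin receptors, 18 of 35 (51.4%) for the class 3 semaphorins, 22 of 56 (39.3%) for the EphA receptors, 5 of 14 (35.7%) for the Robo receptors and 19 of 56 (33.9%) for the plexins. They were 5 of 21 (23.8%) for the ephrin-B ligands, 5 of 21 (23.8%) for the netrins, 6 of 28 (21.4%) for the EphB receptors and 5 of 28 (17.9%) for the ephrin-A ligands. The 7 comparisons share nuclei on their outer side, so their calls are not independent.

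**Figure D3:**
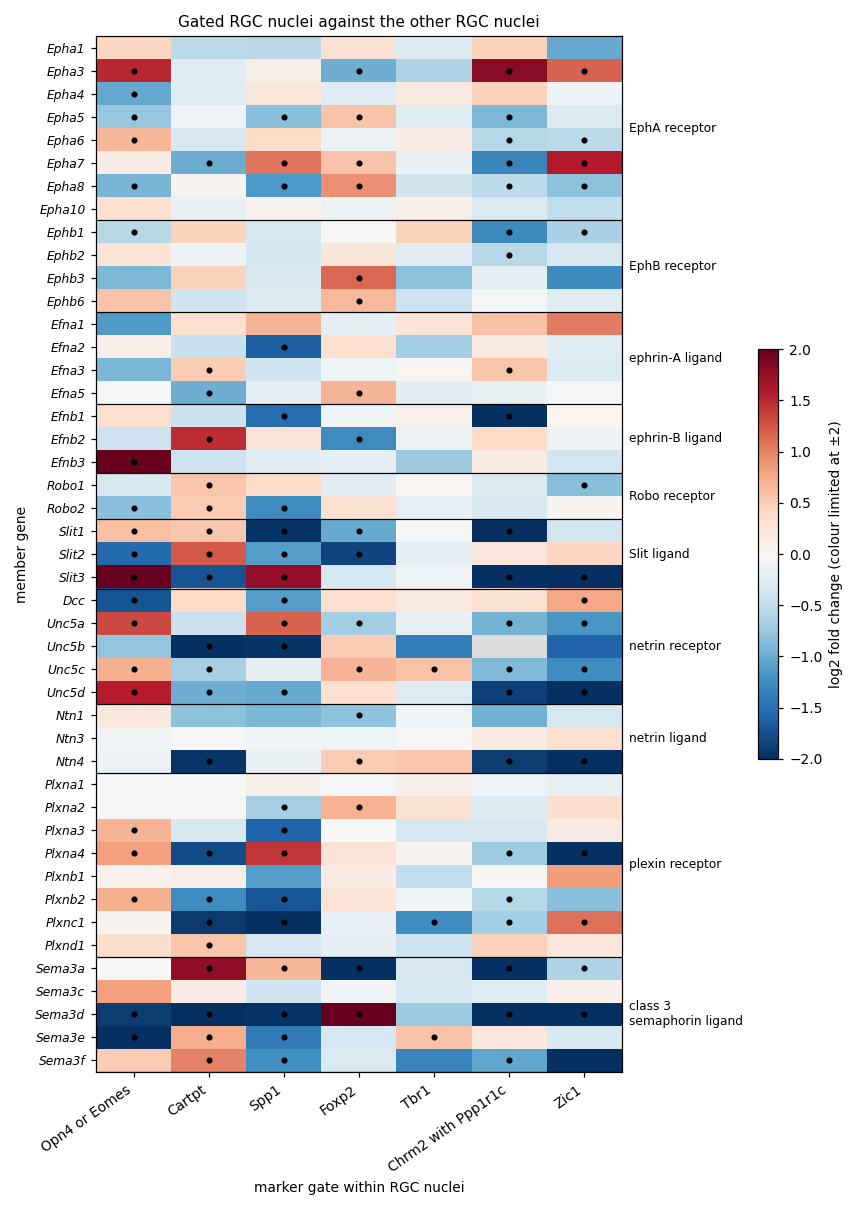
Log2 fold changes of the members in nuclei inside each of 7 marker gates against the other RGC-gated nuclei, one row per member and one column per gate, with colour limited to plus and minus 2, dots marking called members and grey marking members not tested. Sema3d is positive in the Foxp2 column and negative with a call in 5 columns.

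EphA receptors Epha3 and Epha7, known for repelling axons, were each higher in 3 gates and lower in others. In the Opn4/Eomes gate Epha3 was at 25.1, 64.8 and 95.5 CPM, against 19.2, 21.8 and 24.6 CPM outside (log2 fold change 1.51, SE 0.16, adjusted p = 3.18e-13). Inside the Chrm2/Ppp1r1c gate Epha3 gave 51.9, 69.3 and 80.6 CPM, and outside 18.4, 19.7 and 24.2 CPM (log2 fold change 1.81, SE 0.09, adjusted p = 2.80e-21). Epha3 ran at 35.6, 50.1 and 76.3 CPM inside the Zic1 gate and 20.1, 22.2 and 25.1 CPM outside (log2 fold change 1.17). All 3 gates lay above their outside in every library, but thinning to 2000 UMIs lost the Chrm2/Ppp1r1c call (log2 fold change 1.23, adjusted p = 0.125). In the Foxp2 gate Epha3 was lower (log2 fold change -0.98, SE 0.12, adjusted p = 4.33e-09). In the Spp1 gate Epha7 was at 88.7, 107 and 154 CPM, against 46.4, 53.5 and 60.4 CPM outside (log2 fold change 1.08, SE 0.07, adjusted p = 6.53e-17). Inside the Zic1 gate Epha7 gave 81.9, 186 and 257 CPM, and outside 48.0, 54.5 and 60.6 CPM (log2 fold change 1.58). Epha7 likewise had no overlap in either gate. It was also higher in the Foxp2 gate (log2 fold change 0.57, SE 0.04, adjusted p = 2.58e-14), and lower in the Cartpt (log2 fold change -0.99, SE 0.08, adjusted p = 7.51e-13) and Chrm2/Ppp1r1c gates (log2 fold change -1.32, SE 0.10, adjusted p = 1.23e-15). The Foxp2 gate had more of Epha8 and of the EphB receptor Ephb3. Epha8 ran at 35.7, 45.4 and 53.9 CPM inside the Foxp2 gate and 20.1, 23.9 and 29.3 CPM outside (log2 fold change 0.92, SE 0.06, adjusted p = 2.66e-17). In the Foxp2 gate Ephb3 was at 9.91, 12.8 and 20.4 CPM, against 4.96, 6.24 and 8.57 CPM outside (log2 fold change 1.15, SE 0.11, adjusted p = 2.88e-11). Both were higher inside without overlap, but with nuclei thinned to 2000 UMIs the Ephb3 call was lost (log2 fold change 0.60, adjusted p = 0.391). Epha8 was called lower in the Opn4/Eomes, Spp1, Chrm2/Ppp1r1c and Zic1 gates.

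Efnb2, the transmembrane ligand of EphB receptors and Epha4, went in opposite directions in the Cartpt and Foxp2 gates. Inside the Cartpt gate Efnb2 gave 78.9, 95.9 and 101 CPM, and outside 30.2, 32.3 and 35.3 CPM (log2 fold change 1.48, SE 0.06, adjusted p = 3.70e-21). Efnb2 ran at 14.4, 15.9 and 19.9 CPM inside the Foxp2 gate and 35.5, 39.6 and 44.4 CPM outside (log2 fold change -1.26, SE 0.07, adjusted p = 7.41e-19). Neither gate overlapped with its outside. In the Opn4/Eomes gate Efnb3 was at 4.51, 9.70 and 15.7 CPM, against 1.32, 2.02 and 2.83 CPM outside (log2 fold change 2.20, SE 0.38, adjusted p = 3.29e-06). Every library inside had more Efnb3. Inside the Chrm2/Ppp1r1c gate Efna3 gave 4.89, 10.9 and 19.6 CPM, and outside 5.53, 8.06 and 9.78 CPM (log2 fold change 0.55, SE 0.20, adjusted p = 0.0417). The libraries of Efna3 overlapped, 5 of 8 were higher inside, and without control replicate 4 the adjusted p was 0.411. Its call was also lost without control replicate 2 or 3 or cKO replicate 12, with DESeq2 (adjusted p = 0.18) and with a stricter gate (adjusted p = 0.32), and its direction turned with nuclei thinned to 2000 UMIs (-0.44, adjusted p = 0.888).

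All 3 Slit genes, which encode secreted Robo ligands, varied between gates. Slit1 ran at 1.5, 8.59 and 12.6 CPM inside the Spp1 gate and 27.7, 31.6 and 35.8 CPM outside (log2 fold change -1.97, SE 0.17, adjusted p = 9.45e-14). In the Foxp2 gate Slit1 was at 11.0, 16.6 and 20.7 CPM, against 28.5, 32.9 and 36.7 CPM outside (log2 fold change -1.01, SE 0.07, adjusted p = 5.35e-15). Inside the Chrm2/Ppp1r1c gate Slit1 gave 1.62, 3.25 and 5.01 CPM, and outside 27.4, 32.0 and 35.8 CPM (log2 fold change -3.12, SE 0.18, adjusted p = 7.48e-20). Slit1 was lower without overlap in these 3 gates, and higher in the Opn4/Eomes (log2 fold change 0.60, SE 0.14, adjusted p = 6.28e-04) and Cartpt gates (log2 fold change 0.54, SE 0.08, adjusted p = 2.36e-06). Slit2 ran at 92.0, 125 and 273 CPM inside the Opn4/Eomes gate and 347, 363 and 395 CPM outside (log2 fold change -1.53, SE 0.09, adjusted p = 4.43e-24). In the Cartpt gate Slit2 was at 734, 797 and 815 CPM, against 300.1, 325 and 365 CPM outside (log2 fold change 1.23, SE 0.03, adjusted p = 4.91e-26). Inside the Foxp2 gate Slit2 gave 91.3, 105 and 167 CPM, and outside 379, 399 and 444 CPM (log2 fold change -1.83, SE 0.05, adjusted p = 1.63e-30). Slit2 was higher inside the Cartpt gate and lower inside the other 2, and no libraries overlapped. Slit3 ran at 22.6, 46.1 and 108 CPM inside the Opn4/Eomes gate and 4.81, 9.10 and 10.9 CPM outside (log2 fold change 2.52, SE 0.19, adjusted p = 1.41e-19). In the Spp1 gate Slit3 was at 8.58, 32.3 and 68.5 CPM, against 4.89, 9.12 and 12.0 CPM outside (log2 fold change 1.75, SE 0.19, adjusted p = 9.83e-11). The Spp1 gate overlapped with its outside, with Slit3 higher in 7 of 8 libraries, and the Opn4/Eomes gate did not. Inside the Chrm2/Ppp1r1c gate Slit3 gave 0, 0.391 and 2.32 CPM, and outside 5.82, 10.2 and 13.5 CPM (log2 fold change -3.73, SE 0.38, 6 UMIs inside and 1702 outside). Slit3 ran at 0, 0 and 5.30 CPM inside the Zic1 gate and 5.54, 9.98 and 13.1 CPM outside (2 UMIs inside, ratio of pooled levels 0.104, exact 95% counting interval 0.0126 to 0.377). These UMIs fell in 2 libraries and the other Zic1 libraries held none. In both gates the nuclei outside carried Slit3 past the filter on low counts, so no adjusted p is given at full depth. Slit3 was lower in all 8 libraries of both gates, without overlap. Thinned to 2000 UMIs, the Chrm2/Ppp1r1c calls of Slit1 (adjusted p = 0.0905) and Slit3 (adjusted p = 0.168) were lost. Slit2 was also called lower in the Spp1 gate and Slit3 in the Cartpt gate.

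Netrin receptors were also spread unevenly. Dcc and Unc5d, the first attractive and the second of the repulsive Unc5 family, had opposite orders in the Opn4/Eomes and Zic1 gates. In the Opn4/Eomes gate Dcc was at 616, 742 and 1251 CPM, against 2289, 2588 and 2679.9 CPM outside (log2 fold change -1.72, SE 0.07, adjusted p = 9.63e-35). Inside the Zic1 gate Dcc gave 3520.5, 4356 and 5006 CPM, and outside 2247, 2526 and 2634 CPM (log2 fold change 0.78). Dcc was low in the Opn4/Eomes and high in the Zic1 gate. Unc5d ran at 1224, 1363 and 1512 CPM inside the Opn4/Eomes gate and 382, 455 and 479 CPM outside (log2 fold change 1.57, SE 0.06, adjusted p = 2.97e-35). In the Zic1 gate Unc5d was at 0, 37.7 and 111 CPM, against 408, 475 and 506 CPM outside (log2 fold change -3.47, 82 UMIs inside and 79482 outside). None of these 4 comparisons had overlapping libraries. Inside the Spp1 gate Unc5a gave 46.2, 59.6 and 77.2 CPM, and outside 23.8, 24.6 and 34.0 CPM (log2 fold change 1.17, SE 0.09, adjusted p = 9.83e-16). Unc5c ran at 724, 822 and 914 CPM inside the Tbr1 gate and 525, 559.8 and 623 CPM outside (log2 fold change 0.58, SE 0.05, adjusted p = 2.36e-15). Both were higher inside in every library. Further calls were lower Dcc in the Spp1 gate, lower Unc5d in the Cartpt, Spp1 and Chrm2/Ppp1r1c gates, and, for both Unc5a and Unc5c, higher levels in the Opn4/Eomes gate and lower ones in the Chrm2/Ppp1r1c and Zic1 gates. In the Foxp2 gate Unc5c was higher and Unc5a lower, and in the Cartpt gate Unc5c was lower. In the Cartpt gate Unc5b was at 0, 0 and 1.5 CPM, against 1.12, 1.67 and 2.17 CPM outside (log2 fold change -2.02, SE 0.56, 5 UMIs inside and 270 outside). Inside the Spp1 gate Unc5b gave 0, 0 and 1.39 CPM, and outside 1.12, 1.62 and 2.18 CPM (3 UMIs inside, ratio of pooled levels 0.251, exact 95% counting interval 0.0515 to 0.743). These 3 UMIs fell in 2 libraries. In both gates Unc5b passed the filter on low counts through the nuclei outside, so no adjusted p is given. The Unc5b libraries overlapped in both gates, the Spp1 call was lost without cKO replicate 10, 11 or 13, with DESeq2 and with a stricter gate, and both calls were lost with control libraries only. The netrin Ntn4 was lower in the Cartpt, Chrm2/Ppp1r1c (log2 fold change -1.90, SE 0.37, adjusted p = 7.02e-05) and Zic1 gates and higher in the Foxp2 gate (log2 fold change 0.51, SE 0.16, adjusted p = 0.00879). Ntn4 ran at 0, 1.27 and 4.46 CPM inside the Cartpt gate and 3.96, 4.55 and 5.77 CPM outside (log2 fold change -1.95, SE 0.35, adjusted p = 4.09e-05). In the Zic1 gate Ntn4 was at 0, 0 and 5.95 CPM, against 3.87, 4.50 and 5.47 CPM outside (1 UMI inside, ratio of pooled levels 0.111, exact 95% counting interval 0.00282 to 0.623). Ntn4 passed the filter on low counts through the nuclei outside this gate, so no adjusted p is given. Its libraries overlapped in the Cartpt and Zic1 gates, the Zic1 call was lost without control replicate 2 or 3 and with DESeq2, and both calls were lost with control libraries only.

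Of the plexins, 6 of 8 were called in at least 1 gate, beside 36.5% of 15998 genes. Their calls per test, 19 of 56 (33.9%), stood beside 38.2% over all members. Plxnc1, the receptor of Sema7a, was lower in the Cartpt, Spp1, Tbr1 and Chrm2/Ppp1r1c gates and higher in the Zic1 gate. Inside the Cartpt gate Plxnc1 gave 14.2, 24.2 and 32.4 CPM, and outside 70.9, 85.7 and 94.2 CPM (log2 fold change -1.91, SE 0.10, adjusted p = 5.15e-18). Plxnc1 ran at 10.5, 13.3 and 20.2 CPM inside the Spp1 gate and 69.9, 84.9 and 91.4 CPM outside (log2 fold change -2.61, SE 0.11, adjusted p = 7.31e-25). In the Tbr1 gate Plxnc1 was at 24.5, 31.1 and 51.2 CPM, against 69.2, 83.1 and 90.1 CPM outside (log2 fold change -1.24, SE 0.11, adjusted p = 6.55e-14). In these 3 the highest library inside was below the lowest outside, and in the Chrm2/Ppp1r1c gate Plxnc1 was lower in all 8 libraries (log2 fold change -0.68, SE 0.08, adjusted p = 5.67e-10). Inside the Zic1 gate Plxnc1 gave 138, 164 and 229 CPM, and outside 67.2, 80.8 and 86.6 CPM (log2 fold change 1.10). Plxna4 ran at 108, 130.0 and 161 CPM inside the Spp1 gate and 42.4, 47.9 and 52.6 CPM outside (log2 fold change 1.43, SE 0.06, adjusted p = 8.99e-24). In the Foxp2 gate Plxna2 was at 352, 392 and 412 CPM, against 232, 244 and 256 CPM outside (log2 fold change 0.70, SE 0.02, adjusted p = 3.37e-26). Plxna4 and Plxna2, which pair with neuropilins, and Plxnc1 in the Zic1 gate were higher inside without overlap. Plxna4 was also called higher in the Opn4/Eomes gate and lower in the Cartpt, Chrm2/Ppp1r1c and Zic1 gates, and Plxna2 lower in the Spp1 gate.

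Among the semaphorins, Sema3a, the repellent that binds neuropilin 1, was higher in the Cartpt and Spp1 gates and lower in the Foxp2, Chrm2/Ppp1r1c and Zic1 gates. Inside the Cartpt gate Sema3a gave 278, 383 and 526 CPM, and outside 99.5, 111 and 121 CPM (log2 fold change 1.78, SE 0.06, adjusted p = 1.33e-23). Sema3a ran at 11.8, 18.8 and 25.6 CPM inside the Foxp2 gate and 136, 147 and 165 CPM outside (log2 fold change -2.98, SE 0.06, adjusted p = 3.13e-34). In the Chrm2/Ppp1r1c gate Sema3a was at 14.8, 26.6 and 43.8 CPM, against 122, 134 and 149 CPM outside (log2 fold change -2.31, SE 0.10, adjusted p = 1.25e-23). No libraries overlapped in these 3. Sema3a was higher in 7 of 8 libraries of the Spp1 gate (log2 fold change 0.66, SE 0.07, adjusted p = 1.22e-11). It was lower in 5 of 8 of the Zic1 gate (log2 fold change -0.60), so the libraries of that gate disagreed in direction. Inside the Opn4/Eomes gate Sema3e gave 35.4, 53.2 and 80.4 CPM, and outside 242, 256 and 278 CPM (log2 fold change -2.26, SE 0.10, adjusted p = 2.46e-31). Sema3e ran at 286, 367 and 474 CPM inside the Tbr1 gate and 236, 249.5 and 269 CPM outside (log2 fold change 0.57, SE 0.05, adjusted p = 1.82e-12). Sema3e was low in the first and high in the second gate, in every library, and was also called higher in the Cartpt and lower in the Spp1 gate. In the Cartpt gate Sema3f was at 6.00, 7.52 and 10.7 CPM, against 2.82, 3.90 and 5.17 CPM outside (log2 fold change 0.99, SE 0.19, adjusted p = 8.22e-05). Its libraries inside stood above those outside, but a stricter gate lost the call (log2 fold change 0.59, adjusted p = 0.0858). Sema3f was called lower in the Spp1 and Chrm2/Ppp1r1c gates. The Tbr1 calls of Unc5c and Sema3e lay close to the fold threshold, and thinning to 2000 UMIs lost both (Unc5c 0.24, adjusted p = 0.46, and Sema3e 0.45, adjusted p = 0.15). Without cKO replicate 11 the Tbr1 gate had 5 called members of 45 tested in place of 3, beside 615 of 15479 genes.

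Sema3d, another secreted semaphorin, was called higher in the Foxp2 gate and lower in 5 of the other gates. Inside the Foxp2 gate Sema3d gave 19.5, 27.0 and 34.2 CPM, and outside 2.07, 2.33 and 2.99 CPM (log2 fold change 3.49, SE 0.11, adjusted p = 8.34e-28). The lowest library inside stood above the highest outside. Sema3d ran at 0, 2.27 and 5.45 CPM inside the Opn4/Eomes gate and 4.54, 5.91 and 6.70 CPM outside (log2 fold change -1.89, SE 0.56, 5 UMIs inside and 983 outside). In the Cartpt gate Sema3d was at 0, 0.986 and 2.23 CPM, against 4.74, 6.25 and 6.97 CPM outside (log2 fold change -2.71, SE 0.32, 11 UMIs inside and 977 outside). Inside the Spp1 gate Sema3d gave 0, 1.33 and 4.07 CPM, and outside 4.56, 6.04 and 6.87 CPM (log2 fold change -1.96, SE 0.38, 11 UMIs inside and 977 outside). The Opn4/Eomes gate overlapped with its outside and the other 2 did not. Sema3d ran at 0, 1.18 and 1.57 CPM inside the Chrm2/Ppp1r1c gate and 4.68, 6.07 and 6.83 CPM outside (log2 fold change -2.54, SE 0.38, 8 UMIs inside and 980 outside). In the Zic1 gate Sema3d was at 0, 0 and 2.22 CPM, against 4.54, 5.90 and 6.65 CPM outside (1 UMI inside, ratio of pooled levels 0.0900, exact 95% counting interval 0.00228 to 0.502). In each of these 5 gates Sema3d passed the filter on low counts through the nuclei outside, so no adjusted p is given at full depth. Neither the Chrm2/Ppp1r1c nor the Zic1 gate overlapped with its outside. The Chrm2/Ppp1r1c call was lost with thinning to 2000 UMIs (adjusted p = 0.297) and the Zic1 call with control libraries only. Free RNA held 2.99, 5.28 and 7.37 CPM of Sema3d. The outer side of each of these 5 comparisons contains the Foxp2-gated nuclei, which held 625 Sema3d UMIs beside 363 outside the Foxp2 gate. The median outside the Foxp2 gate was 2.33 CPM, beside medians of 0 to 2.27 CPM inside the 5 gates. The part of the Foxp2-gated nuclei in these 5 calls was not tested.

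Of the 54 other pathway genes, 9 higher and 8 lower of 52 tested were called in the Opn4/Eomes gate (all genes: 6.36% higher and 6.96% lower), 4 higher and 7 lower of 52 in the Cartpt gate (4.4% higher and 6.35% lower), 8 higher and 15 lower of 53 in the Spp1 gate (10.4% higher and 12.6% lower), 4 higher and 12 lower of 53 in the Foxp2 gate (4.68% higher and 7.78% lower), 2 higher and 6 lower of 53 in the Tbr1 gate (1.54% higher and 2.86% lower), 4 higher and 6 lower of 52 in the Chrm2/Ppp1r1c gate (4.09% higher and 7.58% lower) and 4 higher and 5 lower of 52 in the Zic1 gate (2.5% higher and 6.63% lower).

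Graded guidance genes were then asked for along the dorsal to ventral axis of the retina. Tbx5 is a transcription factor of dorsal and Vax2 one of ventral retina. RGC-gated nuclei with a Tbx5 UMI and no Vax2 UMI (749) were set against those with Vax2 and no Tbx5 (2993). Position itself was not measured. In this comparison 2 of 31 tested members were higher with Tbx5 and 4 lower, beside 1.34% higher and 0.899% lower of 11240 genes, with a median of -0.08 against 0.00. Of 3 tested EphB receptors 0 were called, and of 2 tested ephrin-B ligands 1, Efnb2. Ephb1 had a mean of 251 CPM in Tbx5 and 255 CPM in Vax2 nuclei, and Ephb2 of 122 and 124 CPM. Of the other pathway genes, 0 higher and 1 lower of 49 tested were called.

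The promoters of 5 members, 250 bases before to 50 after the transcript start from RefSeq (build GRCm38.p6), are shown because Efnb2 and Slit3 differed most between Tbx5 and Vax2 nuclei, and Efna5, Epha5 and Epha6 differed between RGC-gated and photoreceptor-gated nuclei. They lie at Efnb2 chr8:8661193-8661492 (minus strand), Slit3 chr11:35121206-35121505 (plus strand), Efna5 chr17:62881268-62881567 (minus strand), Epha5 chr5:84417333-84417632 (minus strand) and Epha6 chr16:60605482-60605781 (minus strand), and capitals mark a searched motif.
Efnb2: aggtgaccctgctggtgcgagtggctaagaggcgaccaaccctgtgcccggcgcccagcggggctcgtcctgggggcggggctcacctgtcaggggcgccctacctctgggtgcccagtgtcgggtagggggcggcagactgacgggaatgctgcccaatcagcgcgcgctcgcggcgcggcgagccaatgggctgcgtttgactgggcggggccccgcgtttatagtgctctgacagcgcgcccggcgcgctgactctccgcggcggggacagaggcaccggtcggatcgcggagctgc
Slit3: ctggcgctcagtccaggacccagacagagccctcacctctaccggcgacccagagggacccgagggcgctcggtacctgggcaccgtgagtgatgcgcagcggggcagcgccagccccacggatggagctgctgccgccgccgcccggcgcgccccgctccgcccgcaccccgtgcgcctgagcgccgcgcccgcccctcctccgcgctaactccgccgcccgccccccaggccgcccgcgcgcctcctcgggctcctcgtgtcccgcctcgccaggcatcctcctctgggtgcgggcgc
Efna5: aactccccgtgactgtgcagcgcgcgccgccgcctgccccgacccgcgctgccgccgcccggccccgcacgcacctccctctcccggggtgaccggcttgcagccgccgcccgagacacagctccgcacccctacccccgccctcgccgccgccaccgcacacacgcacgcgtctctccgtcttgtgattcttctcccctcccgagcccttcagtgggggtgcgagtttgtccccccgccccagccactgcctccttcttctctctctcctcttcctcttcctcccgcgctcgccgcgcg
Epha5: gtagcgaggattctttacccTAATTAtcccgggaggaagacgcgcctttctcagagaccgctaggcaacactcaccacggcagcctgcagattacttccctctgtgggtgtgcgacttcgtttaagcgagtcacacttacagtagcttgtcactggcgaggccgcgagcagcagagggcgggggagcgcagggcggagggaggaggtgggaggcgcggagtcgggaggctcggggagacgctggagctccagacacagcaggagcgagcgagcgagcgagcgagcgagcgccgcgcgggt
Epha6: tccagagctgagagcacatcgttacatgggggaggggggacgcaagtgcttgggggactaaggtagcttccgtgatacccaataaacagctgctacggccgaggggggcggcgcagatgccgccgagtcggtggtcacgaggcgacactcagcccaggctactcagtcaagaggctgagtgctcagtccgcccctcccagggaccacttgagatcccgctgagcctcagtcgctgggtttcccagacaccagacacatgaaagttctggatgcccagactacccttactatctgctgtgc
The motifs searched on both strands were the homeodomain core TAATTA, the T-box half-site GGTGTGA and the forkhead motif GTAAACA, held by 5.29%, 3.98% and 3.65% of 32851 promoters of this length. Promoters were matched for 45 of the 54 members, 51 promoters in all; Slit1, Sema3b, Sema3f, Efnb3, Ntn1, Dcc, Unc5d, Plxna1 and Plxna4 were not matched. Epha5, Efna1 and Robo3 held the homeodomain core, Efna1 the T-box half-site and no member the forkhead motif, so Epha5 alone of the 5 shown has capitals. A match is only a match of letters. The member promoters had a median GC content of 64.7% against 52.7% over all, and 20 against 7 CpG dinucleotides. The GC content of those shown was 72.3% for Efnb2, 78.3% for Slit3, 73.3% for Efna5, 64.3% for Epha5 and 60.3% for Epha6. Member genes span a median of 54.2 kb against 14.8 kb over 33185 genes (GENCODE annotation of GRCm39). Counts from nuclei include intronic RNA where the counter keeps it, and the part of gene length in these levels was not tested.

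Along the Tbx5 and Vax2 axis, Efnb2 had the larger of the 2 called rises in Tbx5 nuclei. Efnb2 ran at 48.3, 72.1 and 89.5 CPM in Tbx5 nuclei and 22.1, 34.4 and 35.9 CPM in Vax2 nuclei (log2 fold change 1.16, SE 0.10, adjusted p = 1.94e-10). Every Tbx5 library stood above every Vax2 library. Plxna4 ran at 63.1, 86.6 and 96.5 CPM in Tbx5 nuclei and 40.6, 54.9 and 63.5 CPM in Vax2 nuclei (log2 fold change 0.61, SE 0.08, adjusted p = 1.05e-06). Plxna4 was higher in all 8 libraries although the ranges overlapped, and at a gate of 2 UMIs its adjusted p was 0.657. Slit3 ran at 0, 2.26 and 9.42 CPM in Tbx5 nuclei and 8.29, 13.1 and 21.0 CPM in Vax2 nuclei (log2 fold change -2.07, SE 0.27, adjusted p = 1.42e-06). Slit3 was lower in Tbx5 nuclei in all 8 libraries, with overlapping ranges. Unc5c ran at 319, 418 and 497 CPM in Tbx5 nuclei and 615, 651 and 724 CPM in Vax2 nuclei (log2 fold change -0.65, SE 0.06, adjusted p = 4.79e-10). Unc5d ran at 276, 366 and 433 CPM in Tbx5 nuclei and 469, 519 and 643 CPM in Vax2 nuclei (log2 fold change -0.57, SE 0.06, adjusted p = 6.68e-08). Both Unc5 receptors were lower in Tbx5 nuclei without overlap, and with control libraries only Unc5d fell short of the fold threshold (log2 fold change -0.47). Slit1 ran at 15.1, 26.6 and 33.8 CPM in Tbx5 nuclei and 28.0, 36.8 and 40.8 CPM in Vax2 nuclei (log2 fold change -0.50, SE 0.12, adjusted p = 0.00722). Slit1 sat at the fold threshold, was lower in 7 of 8 libraries, and lost its call without control replicate 3 or 4 or any one cKO library, and with control libraries only, a stricter gate, no doublet removal, a narrower call of nuclei or other size factors.

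**Figure D4:**
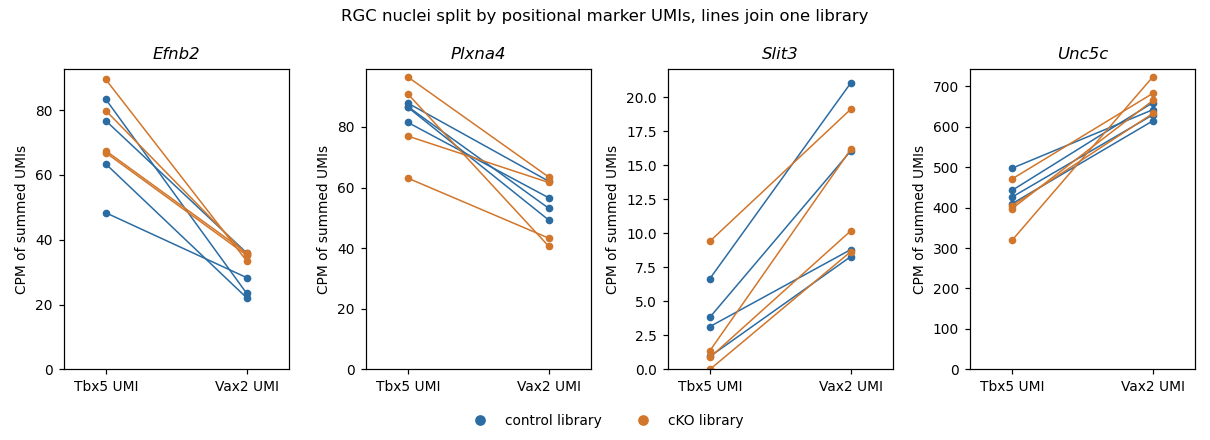
Level in CPM per library of Efnb2, Plxna4, Slit3 and Unc5c in Tbx5 and Vax2 nuclei, with lines joining the values of one library. Efnb2 falls along every line from Tbx5 to Vax2 nuclei.

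Whether the guidance genes differed between cKO and control mice was asked in each class. In RGC-gated nuclei 0 of 49 tested members were called by edgeR, beside 0.0% of 18178 genes, and DESeq2 called 0 members and 3 genes. At an unadjusted p under 0.05 there were 6 members and 601 genes. The log2 fold changes of the 49 members ran from -0.45 (Sema3b) to 0.39 (Ephb6), with a median of -0.05 against 0.01 over all genes and a median SE of 0.11.

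The 6 members with the lowest p are given with every library. Ephb6, an Eph receptor without kinase activity, was at 4.67, 5.10, 4.67 and 4.47 CPM in control and 6.14, 7.71, 6.55 and 5.77 CPM in cKO libraries (log2 fold change 0.39, SE 0.12, unadjusted p = 0.00726, adjusted p = 0.995), and all cKO libraries lay above all control libraries. Dcc was at 2638, 2539, 2568 and 2613 CPM in control and 2379, 2268, 2408 and 2538 CPM in cKO libraries (log2 fold change -0.17, SE 0.07, unadjusted p = 0.027, adjusted p = 0.995). Epha6 was at 1237, 1238, 1278 and 1344 CPM in control and 1165, 1179, 1186 and 1231 CPM in cKO libraries (log2 fold change -0.16, SE 0.07, unadjusted p = 0.0303, adjusted p = 0.995). Dcc and Epha6 were lower in every cKO library than in any control library. Slit2 was at 389.6, 369.6, 339 and 384 CPM in control and 344, 351, 342 and 359 CPM in cKO libraries (log2 fold change -0.15, SE 0.06, unadjusted p = 0.0319, adjusted p = 0.995), and Robo2 at 1520.2, 1414, 1465 and 1572 CPM in control and 1429.8, 1328, 1372 and 1448 CPM in cKO libraries (log2 fold change -0.16, SE 0.07, unadjusted p = 0.0328, adjusted p = 0.995), both with overlapping groups. Unc5d was at 471, 480.2, 499 and 475 CPM in control and 403, 429.6, 470.5 and 468 CPM in cKO libraries (log2 fold change -0.18, SE 0.08, unadjusted p = 0.0454, adjusted p = 0.995), without overlap. Among the tested members the groups did not overlap for 6 of 49 (Epha6, Ephb6, Efnb1, Dcc, Unc5d and Plxna1), beside 3.51% of all genes tested. With 4 against 4 libraries the smallest two-sided exact permutation p is 0.0286. Any gene without overlap reaches it by construction, so it adds nothing to the count of these 6. None of the adjusted p-values passed the threshold.

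**Figure D5:**
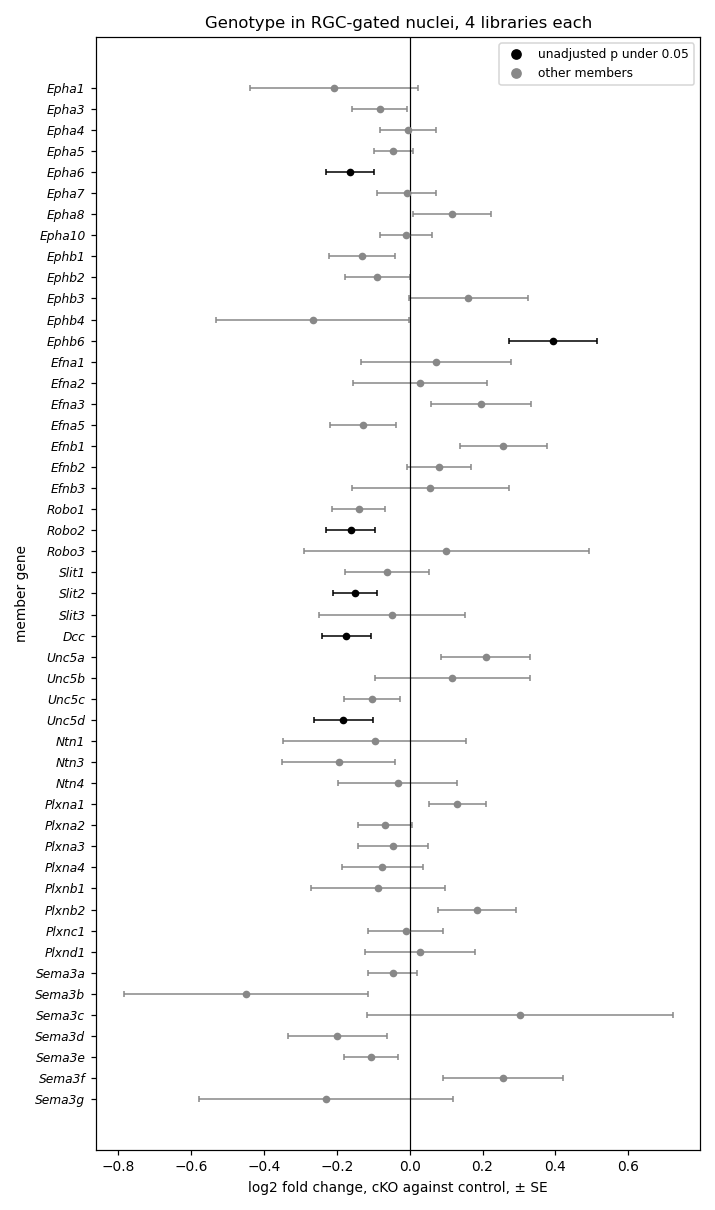
Log2 fold change of cKO over control in RGC-gated nuclei for the 49 tested members, with bars of 1 SE, from edgeR on 4 libraries per group. All lie between -0.45 and 0.39, and Ephb6 is highest.

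The other classes gave 0 called members by edgeR as well. In amacrine-gated nuclei edgeR called 0 of 35 members, beside 0.0% of genes, and DESeq2 called 0. The unadjusted p of edgeR was under 0.05 for 4 members and 554 of 13005 genes. In bipolar-gated nuclei edgeR called 0 of 23 members, beside 0.0% of genes, and DESeq2 called 0. The unadjusted p was under 0.05 for 2 members and 267 of 8888 genes. In photoreceptor-gated nuclei edgeR called 0 of 16 members, beside 0.0143% of genes, and DESeq2 called 1. The unadjusted p was under 0.05 for 7 members and 516 of 7002 genes. In Müller glia-gated nuclei edgeR called 0 of 18 members, beside 0.0% of genes, and DESeq2 called 0. The unadjusted p was under 0.05 for 0 members and 277 of 7720 genes. The median log2 fold change of the members was 0.41 in photoreceptor-gated nuclei, against 0.01 over all genes. The 7 photoreceptor members (Epha4, Epha5, Epha6, Efna5, Robo2, Unc5c and Dcc) were all higher in cKO. Robo2, the member called by DESeq2, was at 87.6, 78.2, 48.0 and 41.2 CPM in control and 181, 152, 85.4 and 179.9 CPM in cKO libraries of this gate, which overlap (edgeR log2 fold change 1.15, SE 0.27, adjusted p = 0.14). Epha4 was at 16.1, 18.1, 19.2 and 13.7 CPM in control and 34.1, 28.4, 27.9 and 31.2 CPM in cKO libraries, which do not overlap (edgeR log2 fold change 0.82, SE 0.31, adjusted p = 0.528). Groups without overlap were found for 1 of 16 tested members in the photoreceptor gate (Epha4, beside 3.7% of genes), 1 of 35 in the amacrine gate (Plxna3, 2.95%), 0 of 23 in the bipolar gate (2.27%) and 0 of 18 in the Müller glia gate (2.47%). Droplets without a nucleus held 321, 365 and 462 CPM of Robo2 at the lowest, median and highest library. In the photoreceptor gate the summed RGC markers ran from 329 to 479 CPM in control and from 426 to 631 CPM in cKO libraries. The cone marker Arr3 ran from 4223 to 6392 CPM in control and from 2842 to 3458 CPM in cKO libraries. The RGC marker Rbpms ran from 9.15 to 27.7 CPM in control and from 40.4 to 81.5 CPM in cKO libraries. The summed RGC markers overlapped, while Arr3 was lower and Rbpms higher in every cKO library than in any control library, and the part of other cells' RNA and of the mix of photoreceptors in these differences was not tested. Without cKO replicate 12, 5 of 15 members and 140 of 6769 genes were called in the photoreceptor gate (Epha5, Epha6, Robo2, Efna5 and Dcc, all higher in cKO and named here after their values were seen).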

How the data were processed

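Nuclei of 4 control and 4 cKO libraries were profiled by droplet single-nucleus RNA sequencing (10x Chromium 3′ chemistry), and groups and replicate numbers came from the sample labels, which gave no batch. Nothing in the labels says that pooled retinae of one library came from other animals than those of another, so p-values refer to these libraries only. In the Zic1 gate p-values were small even where libraries disagreed in direction, and there they do not measure the spread between libraries. The values the authors deposited are raw counts of UMIs for every barcode, made with Cell Ranger 7.0.0 on GRCm39 per the submitters' processing notes; their later steps (free RNA removal, doublet removal, clustering) were not in these counts.

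Nuclei were barcodes reaching 10% of the 99th percentile of the top 8000 totals, together with those of at least 500 UMIs whose profile differed from barcode ranks 45000 to 90000 (adjusted p of at most 0.001, 10000 simulations). Nuclei with under 200 genes, over 5% mitochondrial UMIs or outlying depth were removed, 9606 of 45918 called, and the top 0.8% per 1000 by Scrublet score were removed as doublets, 1377 in all. A class gate needed 3 UMIs of 2 panel genes and a panel share set against that of empty droplets, and a nucleus passing several class gates stayed out. The type gates needed 2 UMIs of Opn4 plus Eomes, 8 of Cartpt, 3 of Spp1, 3 of Foxp2, 1 of Tbr1, 1 each of Chrm2 and Ppp1r1c, or 2 of Zic1. Counts were summed per library and gate, for sums of more than 10 nuclei and more than 1000 UMIs, and tested in R 4.3.3 with edgeR 4.0.16 (quasi-likelihood, trimmed mean normalization, filterByExpr, Benjamini-Hochberg). The script was tested on simulated data. Single values also had exact permutation tests over libraries. Named members were, per comparison between gates, up to 4 called members on each side with the largest absolute log2 fold change, and between genotypes the members with an unadjusted p under 0.05. Alternatives were DESeq2 1.42.0, other size factors, no filter on low counts, stricter gates, thinning to 2000 UMIs, other calls of nuclei and doublets, control libraries only and each library left out. The members, lists and gates were chosen with earlier results of these data known. Gate genes are not members. A planned comparison between RGC nuclei is not reported here. Intervals cover counting error only. Python 3.11.15, numpy 2.4.6, scipy 1.17.1, pandas 2.3.3, scanpy 1.11.5, numba 0.67.0 and matplotlib 3.10.9 were used.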

Additional observations from a re-analysis of the deposited data

Results flagged for a closer look

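In RGC-gated nuclei, 34 named members were checked in both groups for a library far from the other 3 of its group, 68 groups in all, and 4 stood apart, where chance flags about 1 in 20 groups. Unc5b in cKO replicate 10 was 2.16 CPM beside 1.55 to 1.64 CPM in the other cKO libraries. Sema3d in the same library was 4.46 CPM beside 5.77 to 5.89 CPM. Robo1 in control replicate 1 was 425 CPM beside 337 to 349 CPM in the other controls, and Plxnb1 in the same library was 2.4 CPM beside 1.64 to 1.74 CPM.

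Epha6 was called in neither RGC-gated nuclei (edgeR adjusted p = 0.995) nor Müller glia-gated nuclei, where it fell under the filter on low counts and was not tested, but its groups lay on opposite sides in these 2 classes. In each, every cKO library stood on one side of every control library. The cKO mean minus the control mean was -83.8 CPM in RGC-gated nuclei and 31.8 CPM in Müller glia-gated nuclei (control mean 7.32, cKO mean 39.1 CPM), where cKO replicate 13 alone stood at 102 CPM. With no filter on low counts Epha6 was called in Müller glia-gated nuclei. The difference between the classes was not tested, and free RNA held 89.1, 115 and 213 CPM of Epha6.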

How the results depend on the processing

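Counts of called members stayed within 1.5 times the main count in 179 of 186 alternative settings of the comparisons between gates. Between genotypes the main count was 0 in every class, where a ratio says nothing about stability, and it stayed 0 in 72 of 76 settings. Single named members kept their direction and their side of the thresholds in 1381 settings and missed a threshold in 40. Thinning each nucleus to 2000 UMIs, which leaves out shallower nuclei and tests fewer genes, left 18 called members of 30 tested against amacrine, 23 of 30 against photoreceptor-gated nuclei, 9 of 31 in the Foxp2 gate, 11 of 32 in the Chrm2/Ppp1r1c gate, 2 of 29 in the Tbr1 gate (beside 232 of 10319 genes) and 3 of 14 between Tbx5 and Vax2 nuclei (beside 25 of 1407 genes), and turned Efna3 in the Chrm2/Ppp1r1c gate to a log2 fold change of -0.44 (adjusted p = 0.888). Control libraries alone called 5 of 45 members in the Tbr1 gate beside 466 of 15463 genes. Leaving out one library gave 3 to 5 members in the Tbr1 gate beside 600 to 694 genes. Between genotypes in the photoreceptor gate it gave 0 to 5 members beside 0 to 140 genes, no filter on low counts 3 of 49 members and 166 of 21339 genes, and DESeq2 1 of 16 members and 20 of 7002 genes. No filter gave 1 of 50 members and 33 of 21150 genes between genotypes in the Müller glia gate. The causes were not tested. Stricter gates gave no value for the Opn4/Eomes, Tbr1 and Zic1 comparisons, nor thinning for the Opn4/Eomes, Cartpt, Spp1 and Zic1 comparisons, for lack of nuclei. No paired analysis was possible because control and cKO libraries share no replicate number. Depth limits members with few UMIs per gate, such as Unc5b, Ntn4 and Sema3d in the smaller gates.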
